A study of Sus scrofa with 21 samples.

Results

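The genes described here act in DNA replication and cell division, from the loading of replicative helicase in G1 to cytokinesis. They were taken from a list of 44 gene symbols, matched to the Ensembl pig gene name of each gene identifier in the deposited tables. Of the 44, 38 were found by symbol among 18661 listed genes, 14276 of which carried a symbol, and all 38 passed the filter on low counts that left 13127 genes for testing. GINS2, PCNA, RRM2, CCNA2, AURKA and MKI67 had no match by symbol and were not analysed here.

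RNA from the distal small intestine was sequenced in 21 piglets, Danish Landrace/Yorkshire pigs aged 24 to 25 days. The 11 starch piglets had received a milk replacer in which wheat was added as starch, and the 10 control piglets had received the normal milk replacer. The labels give each library as a separate piglet, and give neither sex, litter nor batch. Each library held between 6719264 and 8610458 expected counts over between 15702 and 16335 listed genes.

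A cell that is about to divide first loads the MCM helicase onto its replication origins, then switches on E2F target genes for nucleotide supply and DNA synthesis, and later the FOXM1 target genes that build the spindle and check its attachment. In the small intestine, dividing epithelial cells lie in the crypts, where stem cells marked by LGR5 give rise to fast-dividing progenitors, while absorptive enterocytes on the villi have left the cell cycle. Lymphoid follicles of the distal small intestine hold germinal centres in which B cells, marked by the antigen receptor subunit CD79A, also divide rapidly. In bulk tissue, fewer dividing cells and less of these RNAs per cell cannot be told apart.

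Some libraries stood apart. Starch 3, control 5 and control 8 had the lowest mean levels of 10 absorptive enterocyte markers, at -5.41, -4.46 and -4.70 log2 CPM (counts scaled to library size) from the 21-piglet mean, against -0.56 to 1.87 in the other piglets. Summed over those markers, the level ran from 484 to 39700 CPM in starch piglets and from 544 to 46800 CPM in control piglets. ALPI and FABP1, which also define these cells, were not found by symbol. CD79A was at 57.8 CPM in starch 9, 73.7 in starch 10 and 14.7 in control 1, against 0.234 to 6.41 CPM in the other piglets. The main counts and medians that moved most without these piglets are also given without them.

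Scaled for coding length, TYMS, MCM7, TOP2A, CDK1 and BIRC5 had the highest mean levels of the 38 genes. Thymidylate synthase, TYMS, averaged 73.7 ± 35.1 FPKM (fragments scaled for coding length and library size; SD, n = 21), the helicase subunit MCM7 65.2 ± 29.1 FPKM and the DNA topoisomerase TOP2A 62.1 ± 31.3 FPKM. The mitotic kinase CDK1 averaged 56.9 ± 28.2 FPKM and the survivin gene BIRC5 56.8 ± 29.2 FPKM. The lowest mean FPKM were those of cyclin E, with CCNE2 at 8.09 ± 4.39 and CCNE1 at 5.33 ± 3.42, and of the licensing factor CDC6 at 6.23 ± 4.95. Neighbours in this order differed by less than the spread between piglets.

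The genes varied widely from piglet to piglet, and did so together. The median SD of log2 CPM over 21 piglets was 0.63 for the 38 genes, against 0.45 for all tested genes and 0.41 for tested genes whose mean level lay within the range of the 38. CDC6, which loads the helicase, had an SD of 1.00 and was 13.4-fold higher in control 8 than in starch 5. CDC20, the activator of the anaphase-promoting complex, differed 11.6-fold and BIRC5, a subunit of the chromosomal passenger complex, 10.6-fold between the same piglets. CDK2, the kinase partner of cyclin E, differed 1.86-fold between its highest and lowest piglet, with an SD of 0.27.

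**Figure D1:**
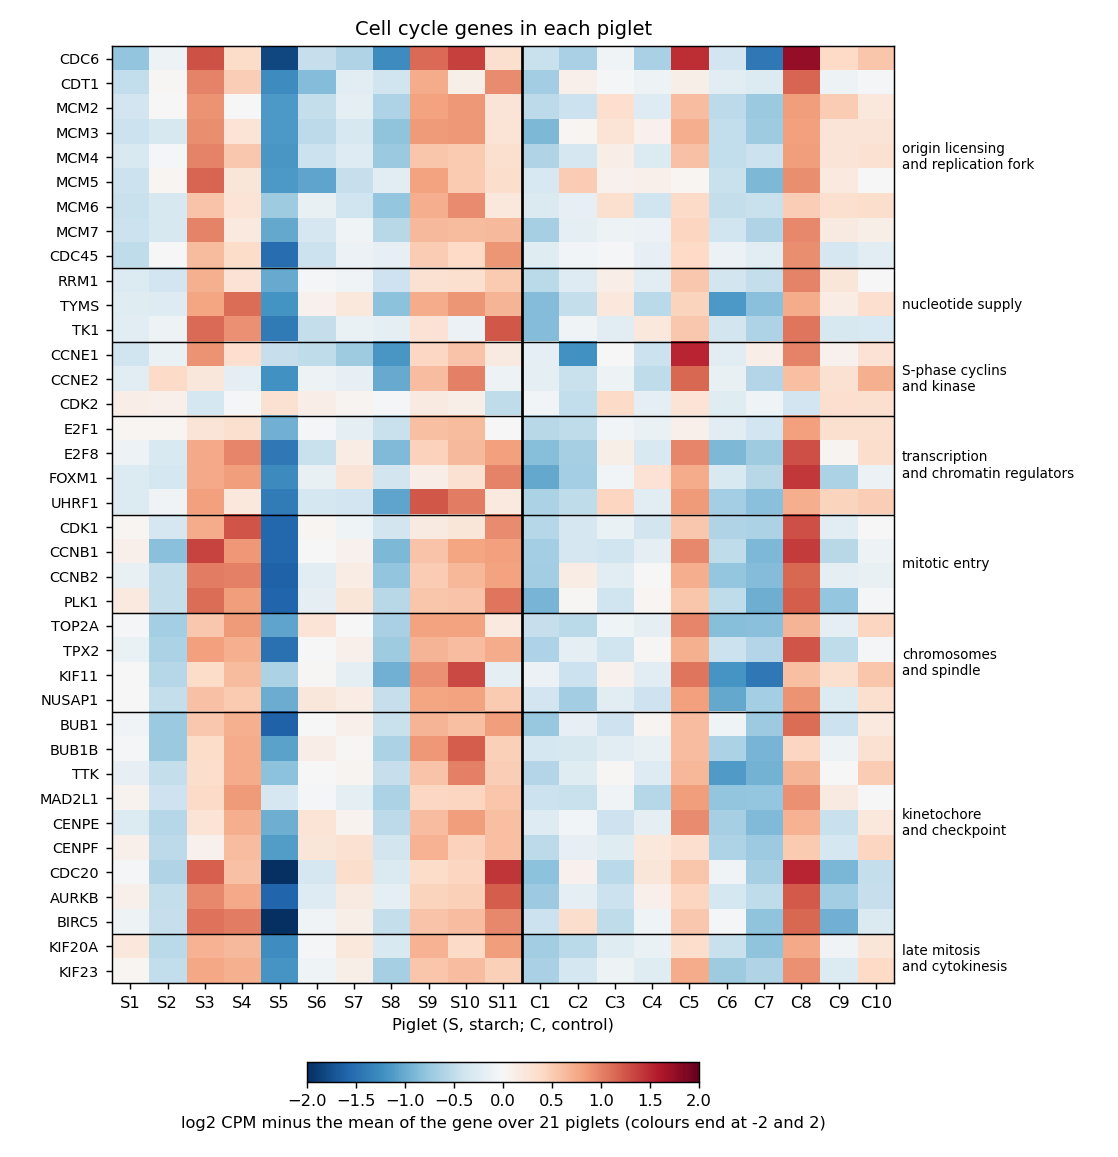
Log2 CPM of each of 38 cell cycle genes (down the page, by role) in each piglet (across, starch S1 to S11 and then control C1 to C10) as the difference from the gene's mean over 21 piglets, with red for higher and blue for lower. Starch 5 is low and control 8 is high in nearly every row, with mean differences of -1.20 and 0.93, while the row of CDK2 stays pale.

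Averaged over the 38 genes, the centred level was highest in control 8, at 0.93, followed by starch 3 at 0.73, control 5 at 0.66, starch 10 at 0.64, starch 9 at 0.61, starch 4 at 0.59 and starch 11 at 0.57. It was lowest in starch 5, at -1.20, followed by control 7 at -0.68, starch 8 at -0.59, control 1 at -0.55 and control 6 at -0.51. The remaining 9 piglets lay between -0.33 and 0.16. Both diets thus had piglets at either end of the range.

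As a description over 21 piglets, and with points that share each library's depth and makeup, the median Pearson r over the 703 pairs of these genes was 0.82, and 26 pairs were below 0. The median r was 0.86 among 12 genes of licensing, fork and nucleotide supply, 0.89 among 19 genes of mitosis, and 0.81 between the 2 groups. Against the mean of the other members, 33 of 38 genes had an r above 0.8, and the kinesin KIF23, which acts in cytokinesis, had the highest at 0.98. The lowest were those of the cyclin E genes CCNE2 at 0.74 and CCNE1 at 0.71, and of CDK2 at -0.21. Of 13089 other tested genes, 2.28% had an r above 0.8 with the mean of the 38, and their median was 0.02. The nearest were the condensin II subunit NCAPG2 at 0.983, the separase gene ESPL1 at 0.973, the condensin I subunit NCAPH at 0.968, the kinesin KIF2C at 0.959 and the transcription factor MYBL2 at 0.959. They were followed by ZGRF1 at 0.958, the condensin subunit NCAPD2 at 0.958, the histone methyltransferase EZH2 at 0.956, the histone chaperone ASF1B at 0.956 and the kinase MELK at 0.955.

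The study's own comparison set starch against control piglets, and no cell cycle gene passed the test of it that was run here. By edgeR's quasi-likelihood test with Benjamini-Hochberg adjustment over 13127 genes, 0 of 38 genes and 0% of all tested genes were called at an adjusted p of 0.05, and the adjusted p of each of the 38 was 0.9998. At an unadjusted p below 0.05 there were 0 of the 38 genes against 1.33% of all tested genes. DESeq2 and limma with voom also called 0 genes, with 1.46% and 2.04% of all tested genes below an unadjusted p of 0.05. The estimated fold changes were small next to their errors, and 33 of 38 were above 0 (25 of 38 on log2 FPKM and 28 with voom), with a median log2 fold change (starch minus control) of 0.15 against 0.004 for all tested genes. Because these genes vary together across piglets, their estimates are not independent of each other.

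The 9 genes of licensing and the fork had a median log2 fold change of 0.05, and 7 were above 0. With the 3 genes of nucleotide supply, 9 of 12 replication genes were above 0, 6 with voom and 3 on log2 FPKM. MCM7 had 60.6, 117 and 248 CPM as its lowest, median and highest value in starch piglets, against 77.9, 115 and 241 CPM in control piglets. The ranges overlapped almost wholly, and the log2 fold change was 0.12 (SE 0.24; unadjusted p = 0.625 by edgeR's quasi-likelihood test). CDC6 had 1.99, 7.15 and 20.3 CPM in starch piglets, against 2.69, 6.56 and 26.7 CPM in control piglets, with a log2 fold change of -0.11 (SE 0.43). CDC45, a part of the active helicase, averaged 28.3 ± 11.3 CPM in starch piglets and 26.7 ± 8.77 CPM in control piglets (SD, n = 11 and 10).

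Among the 3 genes of nucleotide supply, TYMS, which makes thymidylate, had the smallest unadjusted p of all 38 genes in the diet comparison. It had 23.1, 61.2 and 116 CPM as its lowest, median and highest value in starch piglets, against 23.8, 48.3 and 89.0 CPM in control piglets. The groups overlapped over most of their range, with a log2 fold change of 0.41 (SE 0.28; unadjusted p = 0.157 and adjusted p = 0.9998 by edgeR's quasi-likelihood test). The salvage enzyme TK1 had a log2 fold change of 0.26 (SE 0.29) and RRM1, the large subunit of ribonucleotide reductase, one of -0.02 (SE 0.21). For the genes of the G1/S switch, CCNE1 averaged 5.54 ± 2.44 CPM in starch piglets and 6.64 ± 4.01 CPM in control piglets, with a log2 fold change of -0.26 (SE 0.30). CCNE2 was at -0.14 (SE 0.27) and CDK2 at 0.01 (SE 0.13). The regulators E2F1, E2F8, FOXM1 and UHRF1, the last of which maintains DNA methylation at replication forks, lay between 0.05 and 0.10.

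All 19 mitosis genes had an estimate above 0, also with each other scaling and tool, with a median log2 fold change of 0.23, and none passed the test. Without starch 9, starch 10 and control 1, 13 of the 19 were above 0. PLK1, a kinase of mitotic entry, had 18.5, 66.7 and 123 CPM in starch piglets, against 28.6, 48.6 and 130 CPM in control piglets. Its highest and its lowest value were in single piglets of opposite diets, control 8 and starch 5, and the log2 fold change was 0.36 (SE 0.31; unadjusted p = 0.247 by edgeR's quasi-likelihood test). The checkpoint kinase BUB1B averaged 46.3 ± 21.8 CPM in starch piglets and 36.5 ± 12.3 CPM in control piglets, with a log2 fold change of 0.34 (SE 0.25). KIF20A, a kinesin of the central spindle, averaged 60.1 ± 22.2 CPM in starch piglets and 47.8 ± 17.5 CPM in control piglets, with a log2 fold change of 0.33 (SE 0.23). TOP2A had 121, 291 and 456 CPM in starch piglets, against 141, 221 and 500 CPM in control piglets, and a log2 fold change of 0.20 (SE 0.26).

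**Figure D2:**
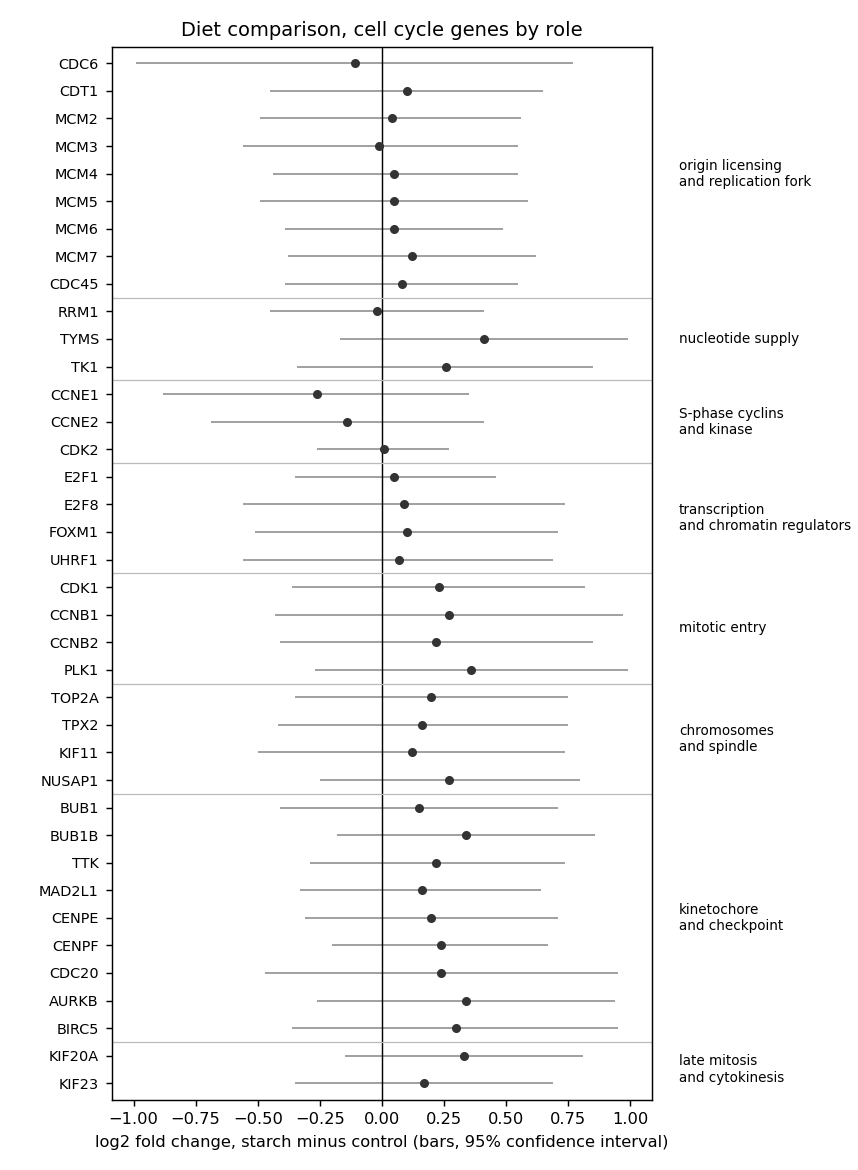
Log2 fold change, starch minus control, of each cell cycle gene by role, with the 95% confidence interval from edgeR's quasi-likelihood fit on 11 starch and 10 control piglets. Every interval spans 0, from CCNE1 at -0.26 to TYMS at 0.41.

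The mean centred level of the 19 mitosis genes was 0.10 ± 0.68 in starch piglets and -0.12 ± 0.56 in control piglets, and that of the 12 replication genes was 0.02 ± 0.66 in starch piglets and -0.02 ± 0.50 in control piglets (SD, n = 11 and 10). Mitosis minus replication was 0.09 ± 0.27 in starch piglets, between -0.40 and 0.43, and -0.10 ± 0.19 in control piglets, between -0.48 and 0.16. These are descriptions over genes chosen together, and the piglets of the 2 diets overlapped in each measure.

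**Figure D3:**
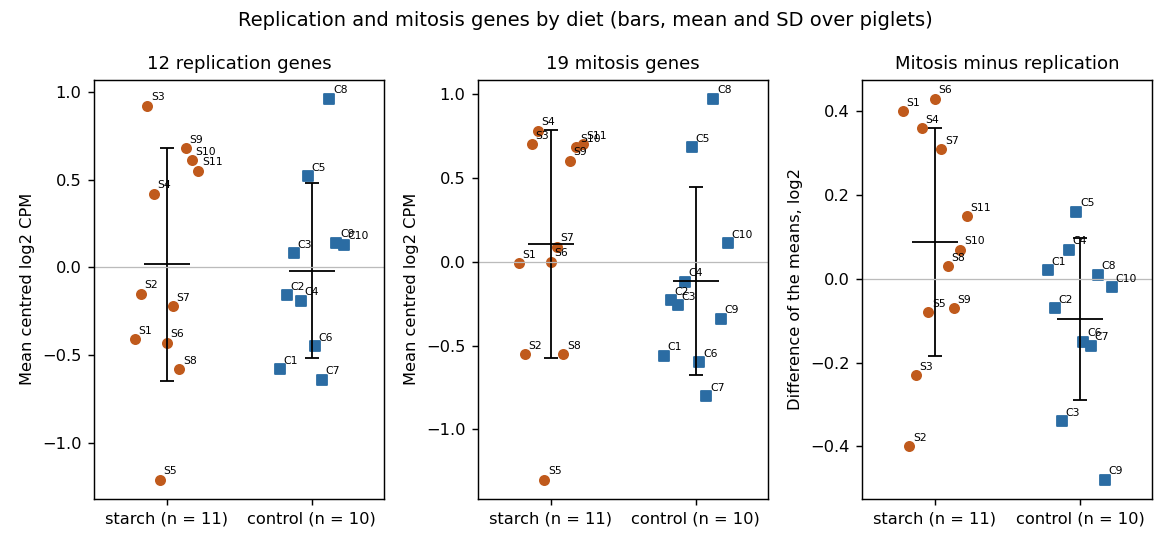
Mean centred log2 CPM of 12 replication genes and of 19 mitosis genes, and the difference between these means, with 1 point per piglet and bars for the mean and SD of 11 starch and 10 control piglets. The starch and control points overlap in each panel, and starch 5 is lowest for both gene groups.

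Further genes of the same processes, outside the list, had medians close to these. Of 35 further mitosis genes, 35 had an estimate above 0 and 0 were called, with a median log2 fold change of 0.21 and the smallest p for the kinesin KIF18A at 0.39 (SE 0.25). Of 30 further replication genes, 18 had an estimate above 0 and 0 were called, with a median of 0.05 and the smallest p for the origin-firing kinase CDC7 at -0.34 (SE 0.21). Of 18 G1 cyclins, pocket proteins and inhibitors, 12 had an estimate above 0 and 0 were called, with a median of 0.05.

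The direction of the members' estimates depended on few piglets. Without starch 3, control 5 and control 8, all 38 estimates were above 0 with a median of 0.44, 0 were called, and 8 had an unadjusted p below 0.05 against 2.91% of all tested genes. The smallest of these were those of NUSAP1, which bundles spindle microtubules, at 0.58 (SE 0.23), and of AURKB, the kinase of the chromosomal passenger complex, at 0.62 (SE 0.26), with adjusted p = 0.9999 for each by edgeR's quasi-likelihood test. Without starch 9, starch 10 and control 1, 16 estimates were above 0 and 22 below, with a median of -0.02. All 12 tested B-cell and germinal centre markers had a diet estimate above 0 with 0 called (median log2 fold change 1.35), and their summed level ran from 43.4 to 798 CPM in starch piglets and from 49.3 to 198 CPM in control piglets. MS4A1, PAX5 and CR2 of that list were absent by symbol or under the filter. With CD79A as a covariate, 25 of 38 estimates were above 0, with a median of 0.05. The part of B-cell content in the diet estimates was not tested beyond these fits.

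LGR5 had 2.43, 7.53 and 13.9 CPM as its lowest, median and highest value in starch piglets, against 3.82, 8.40 and 16.0 CPM in control piglets. It was lowest in starch 11, with 15 expected counts, and the diets overlapped. With diet in the model, 0 of 38 cell cycle genes had a slope on LGR5 that passed edgeR's quasi-likelihood test at an adjusted p of 0.05, against 0.449% of all tested genes. Every slope was at or above 0 (CDC45 at -0.01 with RLE scaling and with voom), with a median of 0.27 log2 units per log2 unit of LGR5 against 0.02 for all tested genes. Without starch 3, control 5 and control 8 the median slope was 0.13 and 6 of 38 slopes were below 0, and with the absorptive score as a second covariate it was 0.09 and 11 were below 0. At an unadjusted p below 0.05 there were 9 of 38 genes, against 23.7% of all tested genes. That count turned on single piglets: it was 27 of 38 without starch 11, against 26% of all tested genes. It was 2 of 38 without control 5, control 6 or control 7, against 18.4%, 17.1% and 17.2% of all tested genes. With voom it was 22, against 34.9% of all tested genes, and on log2 FPKM it was 27, against 34.1% to 34.7%.

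The steepest slopes on LGR5 were those of KIF11, the motor that separates the spindle poles, at 0.60 (SE 0.18; adjusted p = 0.0802 by edgeR's quasi-likelihood test), and of CDC6 at 0.60 (SE 0.29; adjusted p = 0.207). TOP2A followed at 0.47 (SE 0.16; adjusted p = 0.0998 by edgeR). CDC45 was at 0.00 (SE 0.16), CDT1, which loads the helicase with CDC6, at 0.04 (SE 0.18), and CDC20 at 0.08 (SE 0.23). Starch 11 joined the lowest LGR5 to a high mean of the cell cycle genes, at 0.57. Without starch 11 the median slope was 0.50, and 2 of 38 genes were called, TOP2A and CENPF, a kinetochore protein, both with a slope above 0, against 1.56% of all tested genes called above 0. With limma and voom, 8 of 38 were called above 0, against 8.45% of all tested genes. Of the genes outside the list, 35 of 35 for mitosis and 28 of 30 for replication had a slope above 0, and 0 of either were called, with the cytokinesis scaffold ANLN at 0.60 (SE 0.15; adjusted p = 0.0523 by edgeR).

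A score over 11 tested crypt genes, their mean centred log2 CPM, gave more calls than LGR5 alone. The genes of the score were LGR5 itself, OLFM4, SMOC2, RNF43, ZNRF3, AXIN2, SOX9, EPHB2, EPHB3, LRIG1 and CDCA7. With this score in place of LGR5, 31 of 38 cell cycle genes had a slope above 0 at an adjusted p below 0.05 by edgeR's quasi-likelihood test, against 28.5% of all tested genes called and 15.1% called with a slope above 0. All 38 slopes were above 0, with a median of 0.90 per unit of the score, against 0.05 for all tested genes. With CDCA7 left out of the score, 33 of 38 were called, all above 0, against 29.6% of all tested genes called. NUSAP1 had a slope of 1.10 (SE 0.18; adjusted p = 0.000328), TTK, a checkpoint kinase, 1.10 (SE 0.18; adjusted p = 0.000431), TOP2A 1.13 (SE 0.19; adjusted p = 0.000457) and CDC6 1.66 (SE 0.34; adjusted p = 0.00175), all by edgeR. The 7 not called were CDT1, MCM5, CDC45, TK1, CDC20 and BIRC5, with slopes between 0.52 and 0.87, and CDK2 at 0.16 (SE 0.14; adjusted p = 0.4 by edgeR).

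Of the further genes outside the list, 27 of 35 for mitosis and 22 of 30 for replication had called slopes above 0 on the crypt score. Of 18 G1 cyclins, pocket proteins and inhibitors, 5 had, among them cyclin D2, CCND2, at 2.06 (SE 0.38; adjusted p = 0.000856 by edgeR) and its kinase partner CDK6 at 0.96 (SE 0.20; adjusted p = 0.00191), and 1, FZR1, had a called slope below 0, at -0.28 (SE 0.09; adjusted p = 0.0266). CCND2 was at 38.4 CPM in starch 3, against 52.9 and 39.4 CPM in control 5 and control 8, and at 2.26 to 13.9 CPM in the other piglets.

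The crypt genes did not all vary with the cell cycle genes. Over 21 piglets, and sharing libraries, r with the mean of the 38 was 0.82 for SOX9, a transcription factor of crypt progenitors, 0.80 for the crypt receptor EPHB2 and 0.75 for SMOC2, against 0.34 for LGR5, -0.05 for RNF43 and -0.47 for AXIN2. ASCL2 and TNFRSF19 did not pass the filter. The crypt score also moved with other cell types: all 6 fibroblast and matrix markers, 3 of 8 smooth muscle markers, 3 of 7 macrophage markers and 2 of 12 B-cell and germinal centre markers, BCL6 and CD72, had called slopes above 0, and 3 of 10 absorptive enterocyte markers had called slopes below 0. Without starch 3, control 5 and control 8, 17 of 38 cell cycle genes were called above 0, against 4.72% of all tested genes, with a median slope of 0.71. With the absorptive score as a second covariate 9 of 38 were called above 0, against 3.23% of all tested genes, and with the B-cell score 30 of 38, against 14.4%. The part of these cell types in the slopes was not tested beyond these fits.

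**Figure D4:**
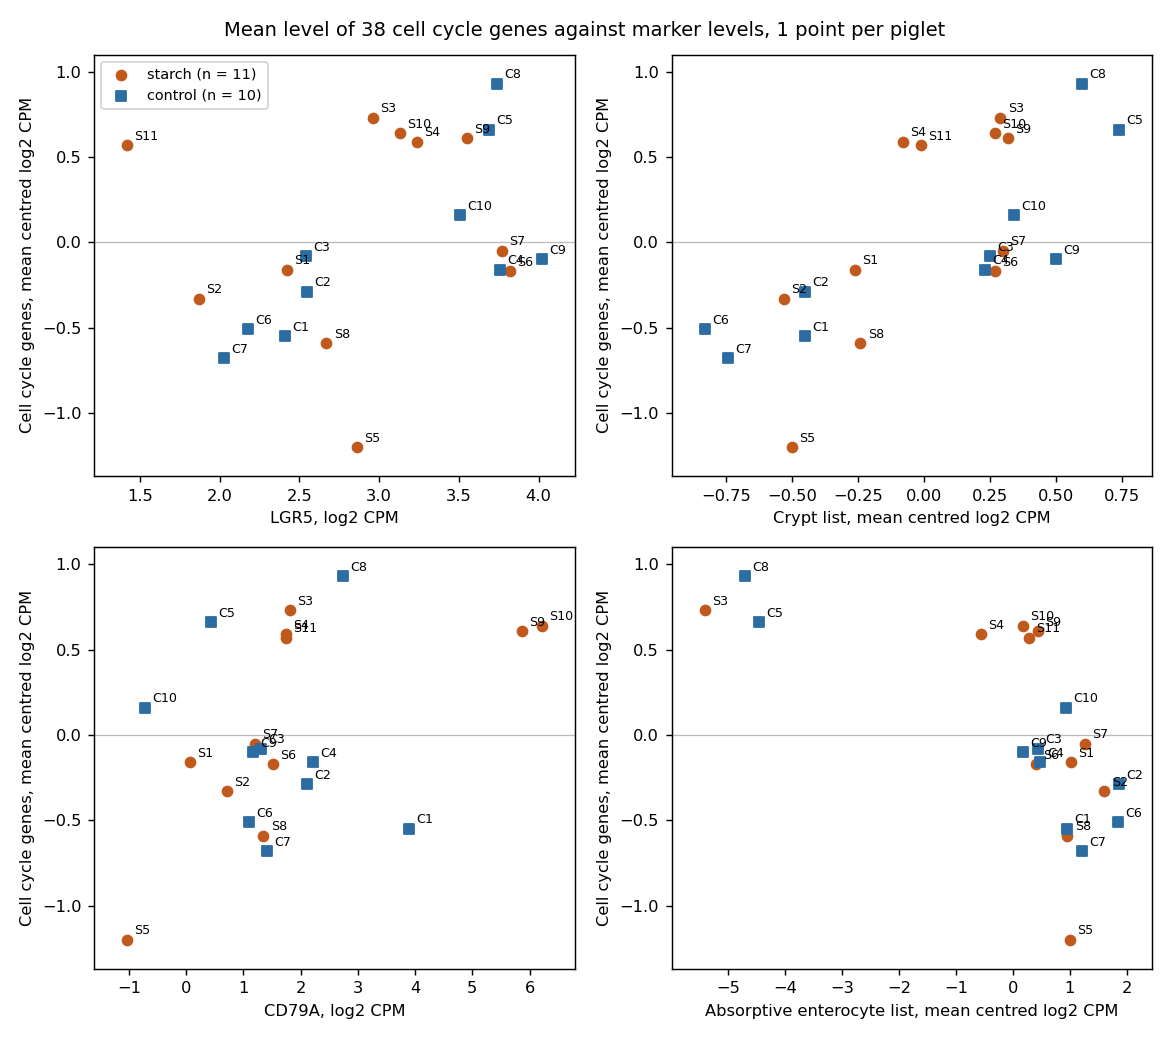
Mean centred log2 CPM of the 38 cell cycle genes (vertical axis) against LGR5, a crypt list score, CD79A and an absorptive enterocyte list score (horizontal axes, log2), with 1 labelled point per starch (n = 11) and control (n = 10) piglet. Starch 3, control 5 and control 8 lie far to the left on the absorptive score and high on the vertical axis, and starch 9 and starch 10 lie far to the right on CD79A.

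CD79A had 0.234, 2.60 and 73.7 CPM as its lowest, median and highest value in starch piglets, against 0.357, 2.30 and 14.7 CPM in control piglets. Starch 5, lowest in the cell cycle genes, was also lowest in CD79A, with 2 expected counts, and control 1 had a high CD79A and a low cell cycle mean. By edgeR's quasi-likelihood test 0 of 38 cell cycle genes had a called slope on CD79A, against 1.63% of all tested genes. Of the slopes, 37 were above 0, CDK2 at -0.03 being below. The median was 0.13 log2 units per log2 unit of CD79A, against -0.005 for all tested genes. At an unadjusted p below 0.05 there were 10 of 38, against 7.94% of all tested genes. This count too turned on single piglets. It was 2 without starch 5, 4 without starch 9 and 3 without starch 10, against 6.2%, 7.59% and 6.8% of all tested genes. Without control 1 or control 5 it was 18, against 11.1% and 10.6% of all tested genes. Without starch 9, starch 10 and control 1 together the median slope was 0.22, against 0.008 for all tested genes, and 3 of 38 slopes were below 0.

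The smallest p for CD79A was that of the helicase subunit MCM6, at a slope of 0.14 (SE 0.05; adjusted p = 0.3 by edgeR's quasi-likelihood test), followed by BUB1B at 0.16 (SE 0.06; adjusted p = 0.362) and MCM5 at 0.17 (SE 0.07; adjusted p = 0.425). MCM6 had 67.8, 105 and 224 CPM in starch piglets, with the highest in starch 10, against 83.7, 125 and 164 CPM in control piglets. Without starch 9, starch 10 and control 1, CD79A ran only from 0.234 to 6.41 CPM, and starch 5 was lowest both in it and in the cell cycle genes. In that fit 9 of 38 genes were called with a slope above 0, against 15.6% of all tested genes. Among them was CDC20 at 0.59 (adjusted p = 0.0132 by edgeR). CDK2, at -0.22 (adjusted p = 0.0137 by edgeR), was called below 0, as were 15.2% of all tested genes. With limma and voom 11 of 38 were called above 0, against 6.13% of all tested genes, and 7 of these were licensing and fork genes. Outside the list, 1 of 30 replication genes and 0 of 35 mitosis genes had a called slope, HELLS, a chromatin remodeller, at 0.21 (SE 0.05; adjusted p = 0.047 by edgeR). For comparison, 9 of 11 other B-cell and germinal centre markers had a called slope above 0 on CD79A.

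LGR5 and CD79A were set side by side in 1 fit, each scaled to its SD over piglets. The difference between the slopes was called for 0 of 38 cell cycle genes by edgeR's quasi-likelihood test, against 0.571% of all tested genes, and the smallest adjusted p was 0.471. The slope on LGR5 was the larger for 18 genes and that on CD79A for 20, with medians of 0.182 and 0.204.

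**Figure D5:**
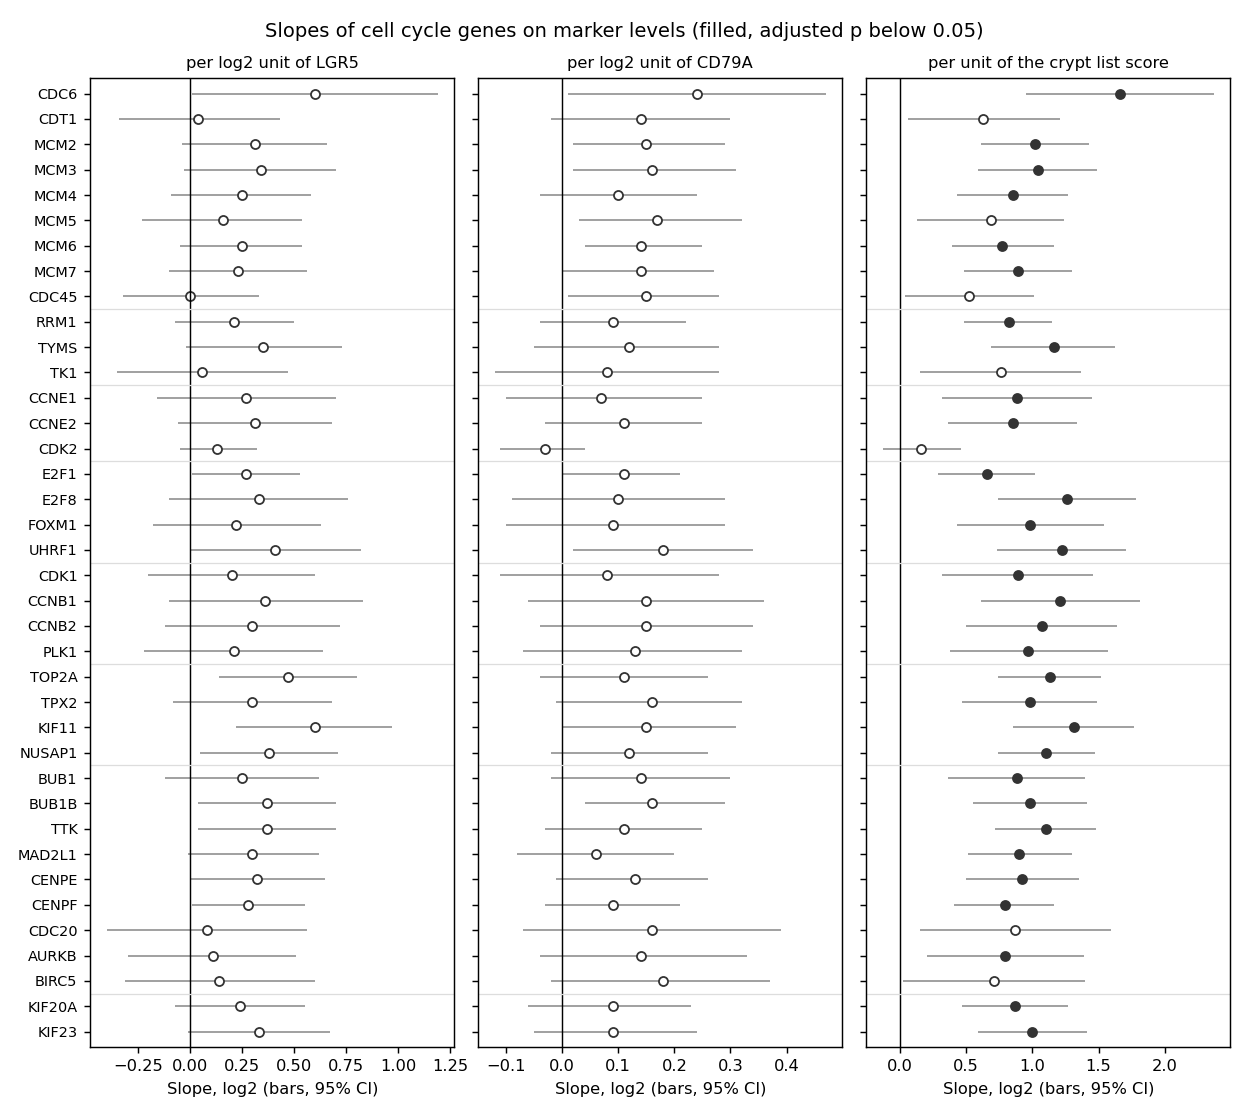
Slope of each cell cycle gene on LGR5, on CD79A (per log2 unit) and on the crypt list score (per unit), with 95% confidence intervals and filled points where the adjusted p is below 0.05. No point is filled for LGR5 or CD79A, and 31 of 38 are filled for the crypt score, with CDK2 at 0.16 nearest to 0.

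Against the absorptive enterocyte score, 34 of 38 cell cycle genes had a slope below 0 at an adjusted p below 0.05 by edgeR's quasi-likelihood test, against 39.1% of all tested genes called and 19.6% called with a slope below 0. This fit was added after the data were seen. Markers of other cell types also had called slopes below 0. These were 7 of 7 for macrophages, 5 of 8 for smooth muscle and 4 of 6 for fibroblasts and matrix. Of 11 crypt markers 4 were called below 0 and 1 above, and of 12 B-cell and germinal centre markers 1 each way. Of 6 markers of the epithelium at large 2 were called below 0, and of 6 T cell markers 0 were called. The part of these cell types in the result was not tested. The median slope of the 38 cell cycle genes was -0.18 per unit of the score, against -0.003 for all tested genes. The mitotic cyclin CCNB1 had a slope of -0.28 (SE 0.05; adjusted p = 8.59e-05 by edgeR), and its highest level among starch piglets was 112 CPM in starch 3, against 116 CPM in control 8 among control piglets. CCNE1 was at -0.24 (SE 0.04; adjusted p = 0.000141 by edgeR) and RRM1 at -0.17 (SE 0.03; adjusted p = 0.000239), while CDK2 was at 0.02 (SE 0.03). Without starch 3, control 5 and control 8, which span most of the score's range, 9 of 38 were called, all with a slope below 0, against 2.34% of all tested genes called below 0, and the median slope was -0.46. Without control 8 alone 22 of 38 were called below 0, against 14.3% of all tested genes. With the crypt score as a second covariate, 5 of 38 were called below 0, against 12.7% of all tested genes: CCNB1, CCNE1, FOXM1, RRM1 and TK1.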

How the data were processed

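RNA-seq of the distal small intestine of 11 starch and 10 control piglets was used, prepared by a standard BGI protocol, per the labels' protocols. The authors deposited estimated counts (expected counts) and FPKM per transcript; the submitters' processing notes name HISAT and DESeq2, without version or role, and the quantifier and genome build were not given in the sources used here. Of the transcript lengths in the deposited tables, 99.97% were multiples of 3, so FPKM is per coding length.

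Expected counts were summed per gene, taken as 0 for transcripts not listed, and rounded. Genes were filtered with filterByExpr (minimum count 10, minimum total 15), scaled by TMM and tested with edgeR 4.0.16 (R 4.3.3) by the quasi-likelihood test over all 13127 genes, with Benjamini-Hochberg adjustment at 0.05. The diet fit had no covariate, and the slopes on LGR5, CD79A and list scores were fitted with diet in the model. For LGR5 and CD79A the marker gene itself was left out of the tested genes. The genes that make up a list score stayed among the tested genes in the fit on that score. The code was tested on simulated counts. Log2 CPM used a prior count of 2. Alternatives were other scalings and filters, DESeq2 1.42.0, limma 3.58.1 with voom or on log2(FPKM + 0.5, 0.1 or 1), covariates, and left-out piglets. The fits with the absorptive enterocyte score were added after seeing the data. Further fits on the crypt score, beyond its use in place of LGR5, were not planned either.

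Genes outside the list were named by a rule: the 10 nearest by r with the mean of the 38, and those with the smallest p of each pathway list; FZR1 was named after its value was seen. The 38 genes, the lists and the tests were chosen with earlier results of these data known. Intervals and p-values cover the spread between these piglets only.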

Additional observations from a re-analysis of the deposited data

Results flagged for a closer look

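In the control group of 10 piglets, 8 of 40 genes (the 38 cell cycle genes, LGR5 and CD79A) had a piglet set apart from the other 9 by a gap larger, relative to the group's range, than Dixon's 95% critical value. Chance gives such a gap in about 1 group in 20 if the values are normally distributed, and genes that vary together are not separate tests. The gaps were taken on CPM rather than log2 CPM, and the distribution of CPM was not tested. The starch group, with more than 10 piglets, was not screened in this way.

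Control 8 was the piglet set apart for 7 of them. In it the licensing factor CDT1 had 26.2 CPM, against 12.4 CPM in the next control piglet, the helicase factor CDC45 49.1 CPM against 34.2 CPM, and the transcription factor E2F1 17.2 CPM against 12.1 CPM. Of the mitotic genes, CDK1 had 104 CPM there against 62.0 CPM in the next, PLK1 130 CPM against 82.7 CPM, CDC20 199 CPM against 102 CPM, and AURKB 74.5 CPM against 42.4 CPM. Control 8 was also among the 3 piglets with the lowest absorptive enterocyte score, at -4.70, and the part of that in these levels was not tested. The B-cell gene CD79A had 14.7 CPM in control 1, against 6.41 CPM in the next control piglet.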

How the results depend on the processing

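Limits. In the diet comparison 0 of 38 cell cycle genes were called under every alternative, and leaving out 1 piglet at a time moved the median log2 fold change between 0.08 (without starch 4 or starch 11) and 0.30 (without control 8). The median without starch 9, starch 10 and control 1 was -0.02. The absence of calls does not show equal levels, since the 95% intervals of most genes span about 1 log2 unit. Slopes on LGR5 rest on 15 to 145 expected counts of that gene, and those on CD79A on 2 to 687. Where a value changed with a setting and no cause is given, the cause was not tested.

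The labels number piglets 1 to 10 in both diets and do not say whether the numbers pair them. Over 10 pairs, r of the deviations from the group means ran from -0.337 to 0.485, and 4 were over 0.1. Only 1 starch piglet correlated best with its own number. Differences in tissue makeup enter these r values, so they cannot exclude a pairing. A fit blocked on that number left out starch 11 and gave a diet median of 0.13, against 0.08 in the same 20 piglets with no block, and CDC45 was at -0.06, against -0.02 with no block, while FOXM1 with no block was at 0.00. The block gave 0 calls for LGR5 and CD79A (2 for LGR5 in the same 20 piglets without it). The blocked fit on the absorptive score gave 36 calls, against 32% of all tested genes. In the same 20 piglets with no block that score gave 34 calls, against 40.5%. For the crypt score the block gave 2 calls, KIF11 and TTK, in place of 33 in the same 20 piglets with no block. The share of all tested genes called on the crypt score also fell, to 3.07% with the block from 29.6% in those 20 with no block. The blocked crypt slopes had a median of 1.01, against 0.90 in those 20 with no block, and all 38 were above 0. Of these slopes, 30 had an unadjusted p below 0.05, against 25.9% of all tested genes. For CD79A, 0 of 38 had an unadjusted p below 0.05 with the block, against 7.13% of all tested genes.

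Diet estimates near 0 changed sign. With CD79A as a covariate MCM2 was at -0.11, CDC45 at -0.01, E2F1 at -0.03 and UHRF1 at -0.17, and with LGR5 and CD79A MCM2 was at 0.00, CDC45 at -0.03 and UHRF1 at -0.01. Without starch 9, starch 10 and control 1 TOP2A was at -0.02, MCM2 at -0.24, CDC45 at -0.04, E2F1 at -0.16 and UHRF1 at -0.33. Without starch 3, control 5 and control 8 CDC6 was at 0.36, CCNE1 at 0.04 and CCNE2 at 0.11, and CDC6 was at 0.14 with either LGR5 or the absorptive score as covariate. With voom MCM2 was at -0.04 and UHRF1 at -0.07. On log2 FPKM with any of the 3 pseudocounts MCM2 was at -0.05 and CDC45 at -0.04, and UHRF1 between -0.07 and -0.06. Leaving out 1 piglet gave ranges across 0 for MCM2 (-0.07 to 0.15), CDC6 (-0.31 to 0.18), CDC45 (-0.02 to 0.22), CCNE2 (-0.30 to 0.03), FOXM1 (0.00 to 0.37), E2F1 (-0.03 to 0.18) and UHRF1 (-0.09 to 0.17).

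For LGR5, calls numbered 1 with upper-quartile scaling, 2 with DESeq2 and 8 with voom. Of all tested genes, 4.65%, 7.64% and 17.3% were called there in either direction. On log2 FPKM with pseudocounts of 0.5, 0.1 and 1 calls numbered 9, 8 and 9, against 15.7%, 15.5% and 15.2% of all tested genes. With the crypt score in place of LGR5 they numbered 31, against 28.5% of all tested genes. On log2 FPKM with a pseudocount of 0.5 the median slope of all tested genes was itself 0.14, and that of the 38 was 0.44. Left-out single piglets gave 0 to 2 calls, against 0% to 3.8% of all tested genes, and medians of 0.22 to 0.50. CDC45 was at -0.01 with RLE scaling, voom or no diet term, at 0.00 with DESeq2, no filter or a mean of 1 CPM, at -0.15 without starch 3, control 5 and control 8, at -0.07 without starch 9, starch 10 and control 1, and at -0.05 with CD79A as second covariate. With the absorptive score as second covariate CDC45 was at -0.17, CCNE1 and CDK1 at -0.04, PLK1 and FOXM1 at -0.03, AURKB at -0.13 and CDC20 at -0.19. Without starch 3, control 5 and control 8 AURKB was at -0.10 and CDC20 at -0.17. Single left-out piglets moved CDC45 between -0.08 and 0.20, AURKB between -0.01 and 0.43 and CDC20 between -0.06 and 0.49.

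For CD79A, 11 were called with voom and 10 without starch 9, starch 10 and control 1, where CCNE2 was at -0.07. Of all tested genes, 7.17% and 30.8% were called there in either direction. Single left-out piglets gave 0 calls and medians of 0.08 to 0.16. For the crypt score they gave 28 to 33 calls, against 18.1% to 30.8% of all tested genes, and medians of 0.80 to 1.04. There were 17 calls without starch 3, control 5 and control 8, against 11.8% of all tested genes. With the absorptive score as second covariate there were 9, against 6.76%. For the absorptive score single left-out piglets gave 22 to 36 calls, against 30.3% to 40.5% of all tested genes, and medians of -0.23 to -0.17. Without starch 3, control 5 and control 8 there were 9 calls, against 6.18%, and the median was -0.46. With the crypt score as second covariate there were 5 calls, against 26.7% of all tested genes.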
